A study of Homo sapiens with 5 samples.

Results

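SP1 and SP3 were set against each other directly: the HCT116 library that received an siRNA against SP3 was compared, gene by gene, with the HCT116 library that received an siRNA against SP1. There was 1 library on each side. Of 20030 gene symbols in the tables, 11709 reached 1 FPKM in at least 1 of the 5 libraries of the series and were compared. HCT116 is an established human colorectal cancer cell line, and an siRNA is a small RNA duplex that directs the cell to cleave a transcript of matching sequence. The groups were cells labelled as SP3 knockdown (1 library), SP1 knockdown (1 library), knockdown of SP1 and SP3 together (1 library) and control (2 libraries, NC_1 and NC_2). All 5 libraries were total RNA extracted with Trizol. Sequences, doses and times of the siRNA treatments were not given in the sources used here. Both the double knockdown and the controls served as points of reference, and the difference between the 2 controls as the background.

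SP1 and SP3 belong to the specificity protein family of zinc finger transcription factors. Both bind the same GC-rich promoter element, the GC box, which is common in promoters of housekeeping and growth genes and in many promoters that lack a TATA box. SP1 is known mainly as an activator that recruits TFIID and Mediator. SP3 is made as long and short isoforms and can act as an activator or as a repressor that competes for the same sites. Both are often abundant in colorectal tumour cells, and which genes respond to each of them is a natural question for a pair of factors with the same binding site.

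The siRNA targets were read first, since they check the labels. SP3 had 5.42 FPKM in the SP3 siRNA library, 14.3 FPKM in the SP1 siRNA library, 6.67 FPKM in the double knockdown and 13.3 and 13 FPKM in the controls. SP1 had 27.5 FPKM in the SP3 siRNA library, 15.8 FPKM in the SP1 siRNA library, 16.1 FPKM in the double knockdown and 36.6 and 37.2 FPKM in the controls. Each transcript was lowest in the library that received its own siRNA alone, close to its level in the double knockdown, and neither was removed. SP3 stood at 41.3% of the control mean in the SP3 siRNA library, with a 95% counting interval of 37.7 to 45.2%. SP1 stood at 42.9% of the control mean in the SP1 siRNA library (39.1 to 46.9%). The library with the SP3 siRNA also held less SP1 transcript than the controls, 74.5% of their mean (69.3 to 80.0%), whereas SP3 in the library with the SP1 siRNA was at 109% (102 to 116%). The comparison therefore sets a library low in SP3 and partly low in SP1 against a library low in SP1 with SP3 near its control level. Directly, SP3 was 0.378 times as high with the SP3 siRNA as with the SP1 siRNA (0.343 to 0.417), and SP1 was 1.74 times as high (1.57 to 1.93). These intervals cover counting error only.

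**Figure D1:**
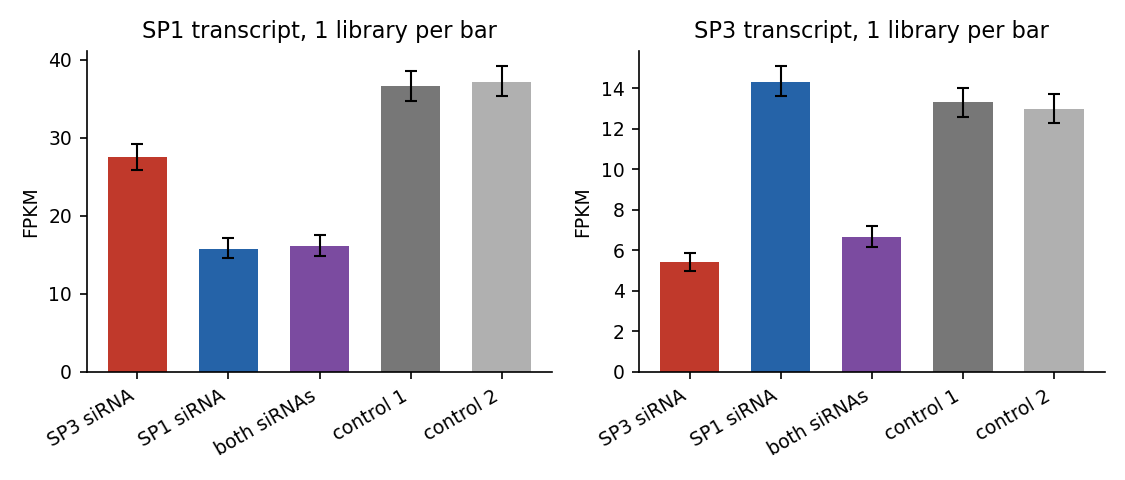
FPKM of SP1 (left panel) and SP3 (right panel) in each of the 5 libraries, 1 bar per library, with 95% counting intervals from recovered reads. SP1 stands at 27.5 FPKM in the SP3 siRNA library and 15.8 FPKM in the SP1 siRNA library, and SP3 at 5.42 and 14.3 FPKM in the same 2 libraries.

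Depth was similar, with 14678068 to 15970519 reads per library, and the number of genes at 1 FPKM or more was 10637 to 11213. The epithelial markers EPCAM, KRT8, KRT18, KRT19 and CDH1 were present in every library, while VIL1, also listed as an epithelial marker, was at 0 to 0.023 FPKM. The endothelial markers and the fibroblast markers other than COL1A1 were at 0 to 0.269 FPKM throughout. The leukocyte markers PTPRC, LYZ, TYROBP, CD14 and LAPTM5 were at 0 to 0.377 FPKM in the SP3 siRNA and SP1 siRNA libraries but at 0.717 to 12.2 FPKM in the controls. These 5 were low in both single knockdowns and higher in the controls, and their part in any value set beside the controls was not tested. CD68, also on the leukocyte list, had 94.1 FPKM with the SP3 siRNA, 56.2 FPKM with the SP1 siRNA and 61.9 and 58.7 FPKM in the controls, so it was higher with the SP3 siRNA and did not follow the other markers. In bulk RNA, fewer cells of a type and less RNA per cell cannot be told apart. The origin of the leukocyte marker reads in the controls was not tested.

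The difference of a gene is log2(FPKM + 1) in the SP3 siRNA library minus log2(FPKM + 1) in the SP1 siRNA library, so a positive value means higher with the SP3 siRNA. This scale understates the difference of genes with low values. With 1 library a side there is no test and no p-value. A gene was called where the 2 libraries differed by 1.5-fold or more on this scale, a log2 difference of 0.585. By this rule 3621 of 11709 genes (30.9%) were called, of which 1442 (12.3%) were higher and 2179 (18.6%) were lower with the SP3 siRNA. At 2-fold there were 1139 (9.73%), 494 higher (4.22%) and 645 lower (5.51%). Between control 2 and control 1 the same rule called 33 genes (0.282%), 12 higher in control 2 (0.102%) and 21 lower (0.179%), and 2 genes (0.0171%) at 2-fold. The SD of the difference across genes was 0.611 on the log2 scale between the knockdown libraries, with a median of -0.09, and 0.133 between the controls, with a median of -0.03. The control libraries give the spread of 1 pair of like libraries, and no such pair exists for either siRNA.

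**Figure D2:**
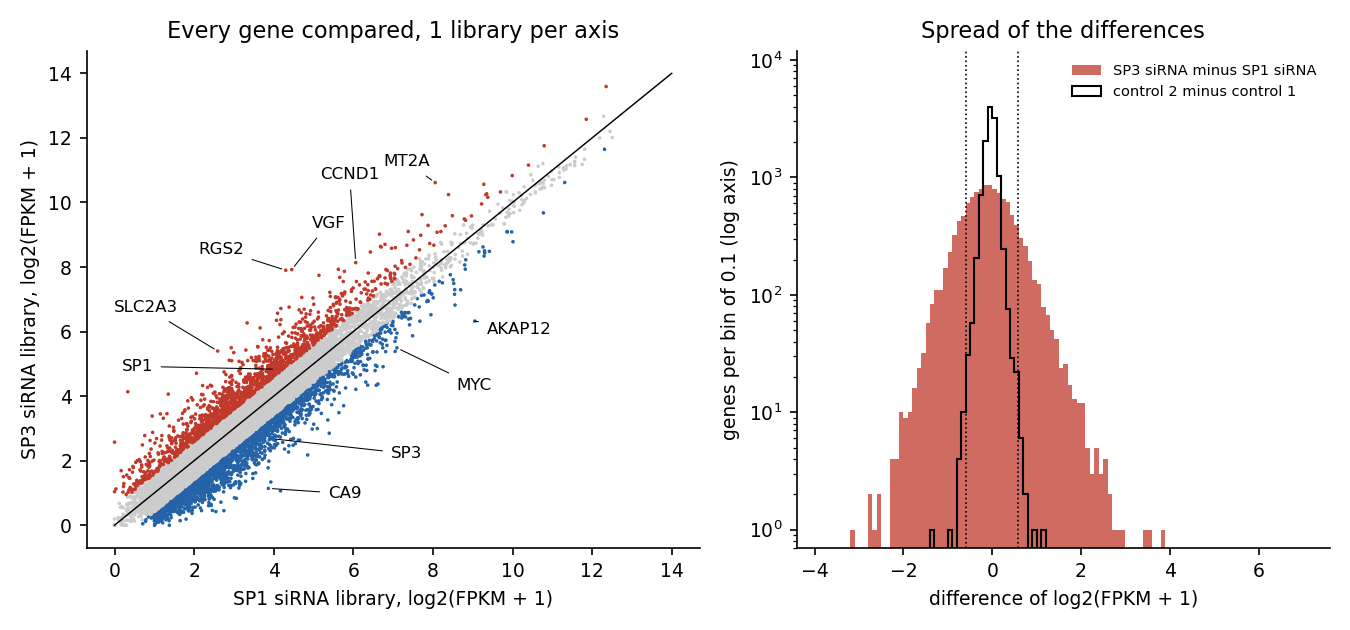
Left: log2(FPKM + 1) in the SP3 siRNA library (vertical) against the SP1 siRNA library (horizontal), 1 point per gene compared, with red for genes 1.5-fold or more higher with the SP3 siRNA and blue for genes lower. Right: number of genes per bin of the log2 difference, on a log axis, with the 1.5-fold limits dotted: the 2 knockdown libraries spread with an SD of 0.611 and the 2 controls with an SD of 0.133.

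The direction of the calls went with the level of the gene. The genes were put in 4 classes of equal size by their mean over the 5 libraries. In the lowest class, 0.296 to 2.86 FPKM, 4.68% were higher and 25.7% were lower with the SP3 siRNA. In the next class 9.6% were higher and 20.1% lower, and in the one above it 14.7% and 15.2%. In the highest class, above 18.0 FPKM, 20.3% were higher and 13.5% lower. The excess of lower calls lay among weakly expressed genes: at a mean of 5 FPKM or more 1172 genes were higher and 1071 lower. The shares of the highest class are the background to set beside lists of abundant genes.

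RGS2 had the greatest positive difference among genes whose mean reached 5 FPKM. It encodes a GTPase-activating protein that shortens G protein signalling. RGS2 had 238 FPKM with the SP3 siRNA, 18.7 FPKM with the SP1 siRNA, 77.4 FPKM in the double knockdown and 47.7 and 49.2 FPKM in the controls. The SP3 siRNA library was the highest and the SP1 siRNA library the lowest of the 5, with the controls between them. The read ratio was 12.7 (11 to 14.8). VGF, the precursor of secreted neuropeptides, had 241 FPKM with the SP3 siRNA, 20.9 FPKM with the SP1 siRNA, 221 FPKM in the double knockdown and 35.9 and 34.3 FPKM in the controls. Its double knockdown level was close to that of the SP3 siRNA library and far above the other 3 libraries, and the ratio between the single knockdowns was 11.5 (10.8 to 12.3).

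The other genes among the 12 greatest positive differences were of several kinds. Core histone genes supplied 4 of them: HIST1H2BC, HIST1H2BJ, HIST2H2BE and HIST1H2AC, at 44.3 to 104 FPKM with the SP3 siRNA and 6.63 to 17.1 FPKM with the SP1 siRNA. The secreted matrix-associated proteins CTGF and CYR61 were the next. CYR61 had 213 FPKM with the SP3 siRNA, 34.2 FPKM with the SP1 siRNA, 94.2 FPKM in the double knockdown and 99.6 and 131 FPKM in the controls. CTGF had 25.1, 3.17, 9.30, 12.1 and 17.6 FPKM in the same order of libraries. For both genes the SP1 siRNA library was the lowest and the SP3 siRNA library the highest of the 5, although the controls themselves differed by 0.39 and 0.51 on the log2 scale. MT2A, a metallothionein that binds zinc and copper, had 1567 FPKM with the SP3 siRNA and 265 FPKM with the SP1 siRNA, against 1164 and 1138 FPKM in the controls. SLC2A3, the glucose transporter GLUT3, followed another order: 41.1 FPKM with the SP3 siRNA, 5.03 FPKM with the SP1 siRNA, 5.92 FPKM in the double knockdown and 70.5 and 63.9 FPKM in the controls. SLC2A3 was low in both libraries that received the SP1 siRNA. SPRR2D, a precursor of the cornified envelope, had 15.7 FPKM with the SP3 siRNA and 1.55 FPKM with the SP1 siRNA, but the controls, at 4.82 and 2.55 FPKM, differed by -0.71 on the log2 scale. RTL8C, a gene derived from a retrotransposon, had 68.2 and 11.6 FPKM in the SP3 siRNA and SP1 siRNA libraries.

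AKAP12, a scaffold that anchors protein kinase A, had the greatest negative difference at that level. It had 79.2 FPKM with the SP3 siRNA, 529.6 FPKM with the SP1 siRNA, 132 FPKM in the double knockdown and 239.9 and 223 FPKM in the controls. The SP1 siRNA library was the highest and the SP3 siRNA library the lowest, and the read ratio was 0.15 (0.147 to 0.152). CA9, a cell-surface carbonic anhydrase and a standard hypoxia gene, had 1.21 FPKM with the SP3 siRNA, 13.6 FPKM with the SP1 siRNA, 3.50 FPKM in the double knockdown and 4.55 and 3.96 FPKM in the controls. Its order of libraries was that of AKAP12. MMP11, a matrix metalloproteinase, had 1.53, 14.2, 2.83, 3.15 and 3.60 FPKM in the same order of libraries. TOP1MT, the mitochondrial type I topoisomerase, had 6.22, 41.1, 7.90, 10.6 and 10.2 FPKM. For MMP11 and TOP1MT the SP1 siRNA library was far above the other 4, and the SP3 siRNA library was below both controls, by 0.71 and 0.63 on the log2 scale. The RNA-binding protein gene RBM12B had 3.52 FPKM with the SP3 siRNA, 27.9 FPKM with the SP1 siRNA, 6.41 FPKM in the double knockdown and 6.65 and 5.30 FPKM in the controls. SELENON, a selenoprotein of the endoplasmic reticulum, had 19.2, 94.3, 41, 32.7 and 33.6 FPKM in the same order. In both genes the SP1 siRNA library was the highest and the SP3 siRNA library the lowest. ARL14EPL differed from them: it had 19.8 FPKM with the SP3 siRNA and 97.3 FPKM with the SP1 siRNA, against 8.06 and 7.84 FPKM in the controls, so both knockdown libraries were above the controls.

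The remaining genes of the 12 greatest negative differences were of several kinds. RBMX, a splicing factor, had 10.2 FPKM with the SP3 siRNA and 48.8 FPKM with the SP1 siRNA, with controls at 22.7 and 21.3 FPKM. SLC25A10, the mitochondrial dicarboxylate carrier, had 3.81 and 19.7 FPKM in the SP3 siRNA and SP1 siRNA libraries, with controls at 10.5 and 11 FPKM. ECHS1, the enoyl-CoA hydratase of mitochondrial fatty acid oxidation, had 8.57 and 40.0 FPKM, with controls at 21.4 and 21.6 FPKM. In each of these 3 genes the controls stood between the single knockdowns. IL32, a cytokine gene, had 6.98 FPKM with the SP3 siRNA, 33.2 FPKM with the SP1 siRNA and 8.70 FPKM in the double knockdown, with controls at 24.8 and 24.6 FPKM. IL32 was low in both libraries that received the SP3 siRNA. SLX1B, a subunit of a structure-specific nuclease, had 0.803 and 7.07 FPKM, but it has the near-identical copy SLX1A, and summed over the pair the values were 2.89 and 9.96 FPKM.

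**Figure D3:**
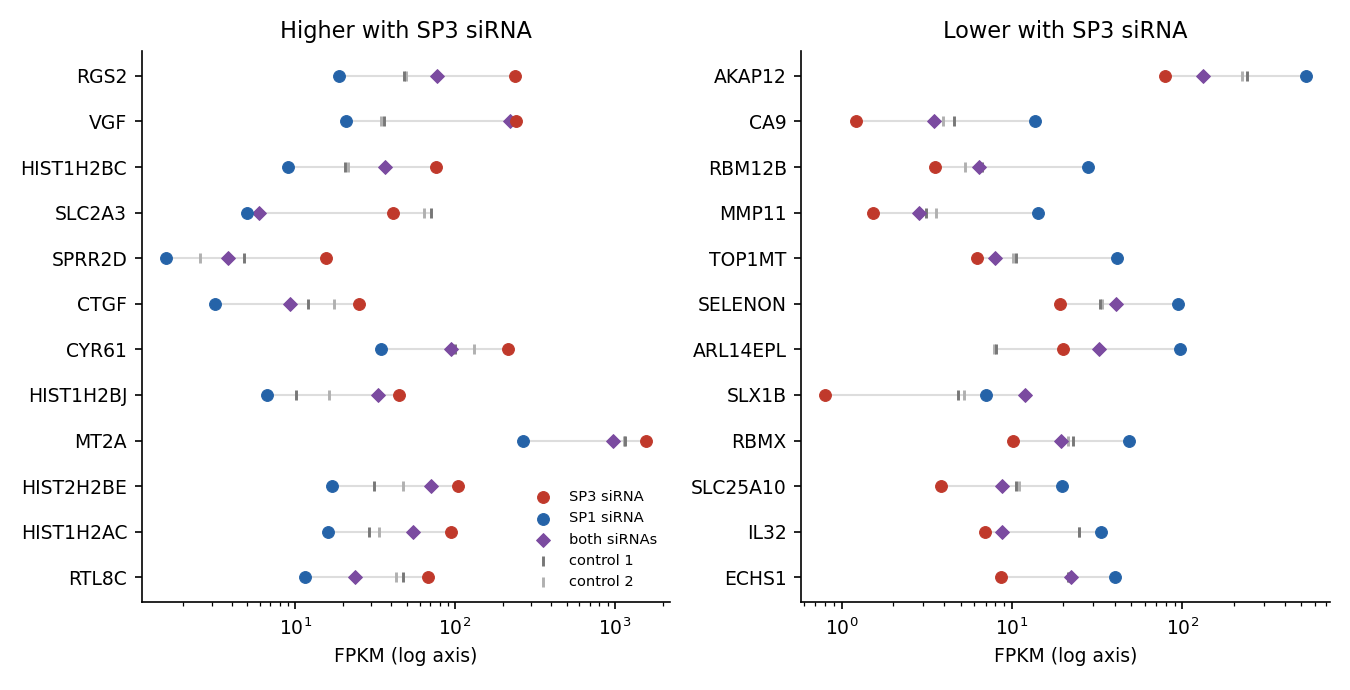
FPKM on a log axis of the 12 genes with the greatest positive (left) and negative (right) differences among genes whose mean reached 5 FPKM, 1 marker per library. In most genes of both panels the controls lie between the red marker (SP3 siRNA) and the blue marker (SP1 siRNA). SLC2A3 (41.1 and 5.03 FPKM, controls 70.5 and 63.9 FPKM) and ARL14EPL (19.8 and 97.3 FPKM, controls 8.06 and 7.84 FPKM) are exceptions.

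Another gene with a great difference had a mean of 3.87 FPKM, below that level, and was chosen after its values were seen. EIF3CL, a copy of the translation initiation factor gene EIF3C, had 16.6 FPKM with the SP3 siRNA, 0.259 FPKM with the SP1 siRNA and 0.585 and 1.56 FPKM in the controls. EIF3C itself had 9.43 FPKM with the SP3 siRNA and 0.927 FPKM with the SP1 siRNA. The 2 genes are near identical and counting can split their reads, so the sum is the safer value. It was 26.0 FPKM with the SP3 siRNA, 1.19 FPKM with the SP1 siRNA, 2.31 FPKM in the double knockdown and 10.02 and 7.30 FPKM in the controls. The sum was lowest in the 2 libraries that received the SP1 siRNA.

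Promoter sequences of 6 of these genes are shown because SP1 and SP3 share the GC box, and these genes differ in whether they carry it. The letters are the 200 bases before the most upstream RefSeq start of each gene, in GRCh38.p14, 5′ to 3′ on the strand of the gene. Capitals mark 4 motifs on either strand. GGGCGG is the core of the GC box, and it reads CCGCCC on the other strand. CCAAT is the box bound by the factor NF-Y, and it reads ATTGG on the other strand. TATAAA is the TATA box, and TTTATA is its other strand. TGACGTCA is a cyclic AMP response element and reads the same on both strands. Of genes higher with the SP3 siRNA, RGS2 lies at chr1:192808839-192809038 on the plus strand, VGF at chr7:101165570-101165769 on the minus strand and HIST1H2BC, now named H2BC4, at chr6:26123927-26124126 on the minus strand. Of genes lower with the SP3 siRNA, CA9 lies at chr9:35673728-35673927 on the plus strand, MMP11 at chr22:23772649-23772848 on the plus strand and SELENON at chr1:25799993-25800192 on the plus strand.
RGS2: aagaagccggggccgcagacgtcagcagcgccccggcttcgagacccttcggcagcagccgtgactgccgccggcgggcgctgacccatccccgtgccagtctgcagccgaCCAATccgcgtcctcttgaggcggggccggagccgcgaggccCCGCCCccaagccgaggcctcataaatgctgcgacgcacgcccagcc
VGF: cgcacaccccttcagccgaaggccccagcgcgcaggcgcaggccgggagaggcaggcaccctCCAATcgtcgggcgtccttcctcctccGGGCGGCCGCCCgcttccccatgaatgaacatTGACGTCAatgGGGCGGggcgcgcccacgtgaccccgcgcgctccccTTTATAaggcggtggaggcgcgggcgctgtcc
HIST1H2BC: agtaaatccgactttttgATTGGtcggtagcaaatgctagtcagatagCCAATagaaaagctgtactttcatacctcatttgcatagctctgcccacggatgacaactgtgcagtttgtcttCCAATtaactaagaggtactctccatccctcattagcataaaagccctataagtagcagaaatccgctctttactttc
CA9: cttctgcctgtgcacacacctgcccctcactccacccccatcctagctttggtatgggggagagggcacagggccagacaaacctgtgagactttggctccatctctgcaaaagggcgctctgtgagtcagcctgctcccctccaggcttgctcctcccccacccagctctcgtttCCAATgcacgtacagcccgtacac
MMP11: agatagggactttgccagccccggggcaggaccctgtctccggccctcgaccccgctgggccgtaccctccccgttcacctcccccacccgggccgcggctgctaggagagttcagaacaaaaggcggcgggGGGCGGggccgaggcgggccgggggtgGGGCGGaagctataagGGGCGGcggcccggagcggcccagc
SELENON: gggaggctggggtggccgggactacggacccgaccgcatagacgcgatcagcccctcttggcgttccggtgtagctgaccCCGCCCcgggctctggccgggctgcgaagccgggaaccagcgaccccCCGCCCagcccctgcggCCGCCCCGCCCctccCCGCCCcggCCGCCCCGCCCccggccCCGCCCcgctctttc
VGF carries 3 GC box cores, 1 CCAAT, 1 TATAAA and 1 TGACGTCA in this window, and RGS2 carries 1 GC box core and 1 CCAAT. HIST1H2BC carries 3 CCAAT and no GC box core. SELENON carries 8 GC box cores and MMP11 carries 3, while CA9 carries none. Genes with and without a GC box core therefore stood on both sides of the comparison. A match of letters is a description and not a bound site.

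Across the genes compared, the number of GC box cores was set beside the calls. A promoter entry was found for 9509 of the 11709 genes (81.2%), with a window from 250 bases before to 50 bases after the start. Because an entry was found for 1182 of the 1442 higher genes but for a smaller share of the lower ones, 1729 of 2179, calls are given per class of promoter. GGGCGG was in 72.0% of these windows, against 44.5% of all 27305 promoters of the table. Of the 2666 genes with no GC box core, 15.9% were lower and 13.9% were higher with the SP3 siRNA. Of the 1693 genes with 4 or more, 22.2% were lower and 11.6% were higher. The share of lower calls was greater at each added core, 16.4%, 18.4% and 20.8% at 1, 2 and 3 cores, and the median difference was -0.04 with none and -0.17 with 4 or more. Within each of the 4 classes of mean level the share of lower calls was also greater with 4 or more cores than with none. In the lowest class it was 27.6% with 4 or more cores and 22.6% with none, and in the highest 20.3% and 9.98%. Windows with TATAAA, 5.42% of the 9509, ran the other way: 19.6% of these 515 genes were higher and 13.2% lower, against 12% and 18.5% of the windows without it. For CCAAT the shares with and without the motif were close, 12.5% and 12.4% higher and 18.3% and 18.1% lower. TGACGTCA was in 3.34% of windows, of which 14.8% were higher and 16% lower. GC box cores are more frequent in GC-rich windows, and the part of base composition in these shares was not tested.

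**Figure D4:**
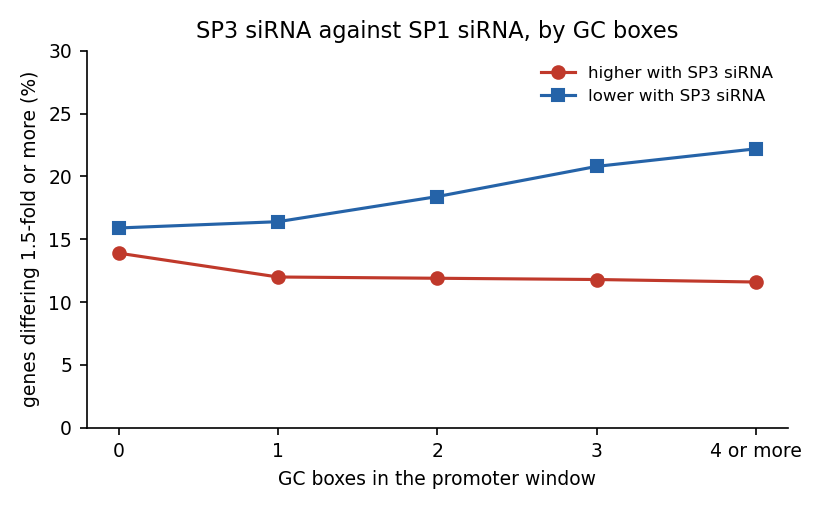
Percent of genes 1.5-fold or more higher (red circles) and lower (blue squares) with the SP3 siRNA than with the SP1 siRNA, by the number of GGGCGG matches on either strand in the promoter window. The lower share is 15.9% with 0 matches and 22.2% with 4 or more, and the higher share is 13.9% and 11.6%.

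A difference between the single knockdowns can come from either side, so the called genes were set beside the controls. Over all genes compared, the SP3 siRNA library was 1.5-fold or more above both controls in 1102 genes (9.41%) and below both in 1453 (12.4%). The SP1 siRNA library was above both in 1616 (13.8%) and below both in 1292 (11%). Of the 1442 genes called higher with the SP3 siRNA, 429 (29.8%) had the SP3 siRNA library above both controls, and 620 (43.0%) had the SP1 siRNA library below both. Of the 2179 genes called lower, 674 (30.9%) had the SP3 siRNA library below both controls and 863 (39.6%) had the SP1 siRNA library above both. These counts share the control libraries and are given side by side for that reason. In both directions the SP1 siRNA library left the control range in more of the called genes than the SP3 siRNA library did.

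Genes that the 2 siRNAs moved to opposite sides of the controls were ranked by the smaller of the 2 distances. Higher with the SP3 siRNA, the first 6 were RGS2, HIST1H2BC, FAM131A, FLNC, MT1E and FAM98A. FLNC, a filamin that crosslinks actin, had 80.5 FPKM with the SP3 siRNA, 15.8 FPKM with the SP1 siRNA, 45.5 FPKM in the double knockdown and 31.6 and 34.8 FPKM in the controls. FAM98A had 33.6, 6.37, 14.1, 17.8 and 17.4 FPKM in the same order, and FAM131A had 19.1, 3.64, 10.6, 8.32 and 8.51 FPKM. Lower with the SP3 siRNA, the first 6 were AKAP12, CA9, RBMX, SLC25A10, ECHS1 and RHOQ. RHOQ, a small GTPase, had 4.13 FPKM with the SP3 siRNA, 18.3 FPKM with the SP1 siRNA, 7.23 FPKM in the double knockdown and 9.43 and 9.56 FPKM in the controls. In these examples the double knockdown lay between the single knockdowns.

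The library with both siRNAs was then placed between the single ones. Over all genes compared it was nearer to the SP3 siRNA library in 6857 (58.6%) and nearer to the SP1 siRNA library in 4852 (41.4%). Among called genes it was nearer to the SP3 siRNA library in 894 of the 1442 higher (62.0%) and in 1458 of the 2179 lower (66.9%). On a scale where 0 is the SP1 siRNA library and 1 is the SP3 siRNA library, its median place was 0.58 in the higher genes and 0.63 in the lower genes. It lay outside both single knockdowns in 161 (11.2%) of the higher genes and 294 (13.5%) of the lower genes. VGF (221 FPKM, beside 241 FPKM with the SP3 siRNA) and SLC2A3 (5.92 FPKM, beside 5.03 FPKM with the SP1 siRNA) show the 2 ends of this range.

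The SP and KLF family, whose members share a similar zinc finger DNA-binding region, was split. Of 18 members compared, 5 were higher and 5 lower with the SP3 siRNA, with a median difference of -0.10. These counts include the siRNA targets, SP1 among the higher and SP3 among the lower, whose directions follow from the treatment. Over all genes compared, 12.3% were higher and 18.6% lower. KLF5, a factor of proliferating intestinal epithelium, had 76.4 FPKM with the SP3 siRNA, 27.7 FPKM with the SP1 siRNA, 48.2 FPKM in the double knockdown and 26.9 and 28.3 FPKM in the controls. KLF5 was above the controls in the libraries that received the SP3 siRNA and at the control level with the SP1 siRNA alone. KLF10, a gene induced early by TGF-beta, had 40.3 FPKM with the SP3 siRNA and 95.6 FPKM with the SP1 siRNA, with controls at 64.2 and 72.9 FPKM between them. KLF13 (24.7 and 10.5 FPKM in the SP3 siRNA and SP1 siRNA libraries) and KLF3 (8.80 and 19.8 FPKM) were chosen after their values were seen and show the same split. Among co-activators that SP1 is known to contact, 8 of 41 Mediator and TFIID genes were higher and 3 lower, beside those shares of all genes. Their median was -0.01 (0.04 with median-ratio scaling). MED20 had the greatest difference among them, with 14 FPKM with the SP3 siRNA and 5.26 FPKM with the SP1 siRNA.

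Histone genes were added to the lists after their values were seen, because 4 of them stood among the 12 greatest differences. Of 90 symbols, 39 reached the level minimum, 25 of these (64.1%) were higher and 2 were lower with the SP3 siRNA, and the median difference was 0.84. The 25 include the 4 genes that prompted the list. Of the 39, 19 lie in the lowest level class, where 4.68% of genes were higher, and 15 in the highest, where 20.3% were. Some weakly expressed members called higher had read ratios whose counting interval includes 1, such as HIST1H2AM (0.72 to 16.6). HIST1H2BC had 76.1 FPKM with the SP3 siRNA, 9.07 FPKM with the SP1 siRNA, 36.6 FPKM in the double knockdown and 20.5 and 21.5 FPKM in the controls. HIST2H2BE had 104, 17.1, 71.0, 31.3 and 47.1 FPKM in the same order. In both genes the SP1 siRNA library was the lowest and the 2 libraries that received the SP3 siRNA were the highest. The linker histone HIST1H1C (188 and 91.0 FPKM in the SP3 siRNA and SP1 siRNA libraries) and the replacement histone H2AFZ (222 and 155 FPKM) had smaller differences. Histone genes have near-identical copies whose reads counting can split. Most replication-dependent histone transcripts end without a poly(A) tail, so their level also depends on how a library was made. The part of that in these values was not tested, and the controls themselves differed by a median of 0.20 over the list.

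The immediate early genes, transcription factor genes that respond within minutes to growth factors, were mostly higher with the SP3 siRNA. Of 20 compared, 11 (55.0%) were higher and 4 lower, with a median difference of 0.61. Of the 20, 15 lie in the highest level class, where 20.3% of genes were higher and 13.5% lower. NR4A1, a nuclear receptor of this class, had 35.9 FPKM with the SP3 siRNA, 10.7 FPKM with the SP1 siRNA, 19.1 FPKM in the double knockdown and 21.2 and 23.5 FPKM in the controls. NR4A2 had 33.5, 10.2, 17.2, 8.92 and 9.24 FPKM in the same order. NR4A1 was thus below the controls with the SP1 siRNA and above them with the SP3 siRNA. NR4A2 was near the controls with the SP1 siRNA and above them with the SP3 siRNA. EGR1, chosen after its values were seen, had 67.6 and 26.4 FPKM in the SP3 siRNA and SP1 siRNA libraries and 23.4 and 29.98 FPKM in the controls. MYC, which drives growth and ribosome production, ran against the list. It had 44.1 FPKM with the SP3 siRNA, 136 FPKM with the SP1 siRNA, 47.8 FPKM in the double knockdown and 91.9 and 85.8 FPKM in the controls. The libraries that received the SP3 siRNA were the lowest for MYC and the SP1 siRNA library was the highest.

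Genes of ERK signalling and of the ERBB receptors divided by member. Of 26 compared, 8 were higher and 9 lower, beside 12.3% and 18.6% of all genes compared. Of the 26, 14 lie in the highest level class, where 20.3% of genes were higher and 13.5% lower. The list median was -0.17. With genes under a mean of 5 FPKM left out, that median was 0.24. The dual-specificity phosphatase DUSP4, which switches off ERK in the nucleus, had 44.7 FPKM with the SP3 siRNA and 16.1 FPKM with the SP1 siRNA, with controls at 20.3 and 21.9 FPKM. Among ligands of EGFR, AREG had 769.5 and 358 FPKM in the SP3 siRNA and SP1 siRNA libraries, with controls at 237 FPKM each, and EREG had 50.8 and 131 FPKM, with controls at 35.3 and 33.0 FPKM. The 2 ligands were therefore above the controls in both libraries and in the opposite order between them. Among receptors, ERBB2 had 9.77 and 4.45 FPKM, and ERBB3 had 2.93 and 8.71 FPKM. SPRY1, a feedback inhibitor of the pathway, had 2.42 and 9.20 FPKM, with controls at 7.35 and 8.10 FPKM. RGS2 and AKAP12, described above, also belong to this list and had its greatest differences, RGS2 among the higher genes and AKAP12 among the lower. SPRY1 came next and was named by the size of its difference. The other genes of this paragraph were chosen after their values were seen.

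Neuroendocrine granule genes, some of which encode secreted proteins of hormone-producing cells, were few in HCT116. Of 14 listed, 9 were compared, of which 4, VGF among them, were higher and none lower with the SP3 siRNA. Over all genes compared, 12.3% were higher. SCG2, a granin, had 30.4 FPKM with the SP3 siRNA, 8.38 FPKM with the SP1 siRNA, 37.8 FPKM in the double knockdown and 2.88 and 3.47 FPKM in the controls. As with VGF, the libraries with the SP3 siRNA were the highest. SYP, the vesicle protein synaptophysin, was chosen after its values were seen and had 5.17, 0.857, 7.31, 0.917 and 0.827 FPKM in the same order of libraries. ENO2, the neuronal enolase, did not share that order, with 122 FPKM with the SP3 siRNA, 164 FPKM with the SP1 siRNA and 178 and 166 FPKM in the controls.

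**Figure D5:**
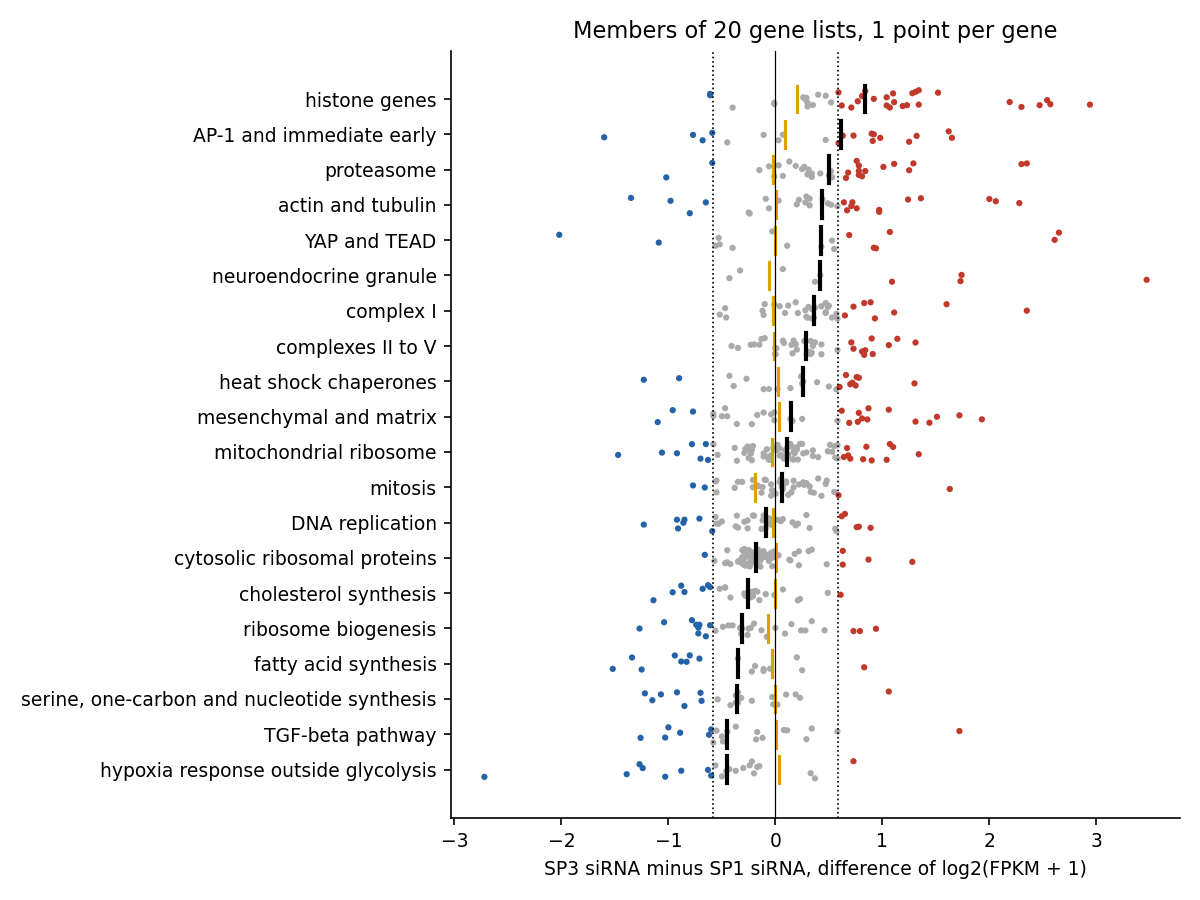
Difference of log2(FPKM + 1), SP3 siRNA minus SP1 siRNA, for the members of 20 gene lists, 1 point per gene, with red for 1.5-fold or more higher and blue for lower. Black bars are list medians, from 0.84 for histone genes to -0.45 for the hypoxia response, and yellow bars are the medians of control 2 minus control 1.

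The proteasome, the protease that degrades ubiquitin-tagged proteins, had many subunit genes higher with the SP3 siRNA. Of 33 subunit genes, 14 (42.4%) were higher and 2 (6.06%) lower, with a median difference of 0.50. Of these genes 28 lie in the highest level class, where 20.3% of genes were higher and the median was 0.07. PSMB6 had 132 FPKM with the SP3 siRNA, 25.1 FPKM with the SP1 siRNA, 69.7 FPKM in the double knockdown and 101 and 90.9 FPKM in the controls. PSMB7 had 243, 48.3, 155, 164 and 167 FPKM in the same order. Both encode catalytic subunits of the core particle, and in both the SP1 siRNA library stood well below the other 4. PSMD2, a subunit of the regulatory particle, had 151 and 60.9 FPKM in the SP3 siRNA and SP1 siRNA libraries, with controls at 105 and 107 FPKM. The 2 genes that were lower, PSMB10 (5.91 and 13 FPKM) and PSMB9 (5.92 and 9.38 FPKM), encode subunits of the immunoproteasome, the form that serves antigen presentation. The list median against the controls was 0.32 in the SP3 siRNA library and -0.12 in the SP1 siRNA library, beside -0.02 and 0.06 over all genes.

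Respiratory chain genes leaned the same way with smaller differences. Of 38 complex I genes, 8 (21.1%) were higher and none lower, with a median of 0.36. Of 39 genes of complexes II to V, 10 (25.6%) were higher and none lower, with a median of 0.29. Because 33 and 39 of these genes lie in the highest level class, their shares of higher calls are near the 20.3% of that class, and none was lower, beside 13.5% of that class. NDUFB2, an accessory subunit of complex I, had 39.7 FPKM with the SP3 siRNA, 6.97 FPKM with the SP1 siRNA, 19.5 FPKM in the double knockdown and 40.8 and 44.0 FPKM in the controls. NDUFS3, a core subunit, had 69.4, 22.2, 52.1, 58.0 and 58.7 FPKM in the same order. CYC1, cytochrome c1 of complex III, had 117, 46.6, 96.6, 119 and 118 FPKM. In these 3 genes the SP3 siRNA library was near the controls and the SP1 siRNA library was the lowest. The mitochondrial ribosome (75 genes, 11 higher, 7 lower, median 0.11) and the citric acid cycle (20 genes, 2 higher, 2 lower, median 0.18) differed less. Of 44 genes of mitochondrial import and carriers, 7 were higher and 10 lower. These counts are near the shares over all genes compared, 12.3% higher and 18.6% lower. TOMM5 had 44.7 and 13.1 FPKM in the SP3 siRNA and SP1 siRNA libraries. TOMM40, the channel of the import complex, had 18.1 and 54.9 FPKM.

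Cytoskeletal genes were more often higher than lower with the SP3 siRNA. Of 31 actin and tubulin genes, 12 (38.7%) were higher and 4 lower, with a median of 0.44. Of the 31, 26 lie in the highest level class, where 20.3% of genes were higher. AHNAK, a giant scaffold protein of the cell cortex, had 73.4 FPKM with the SP3 siRNA, 16.8 FPKM with the SP1 siRNA, 30.2 FPKM in the double knockdown and 124 and 119 FPKM in the controls. TPM3, a tropomyosin, had 25.9, 5.74, 9.88, 16.9 and 15.5 FPKM in the same order. The SP1 siRNA library was the lowest for both genes. TUBB, a beta-tubulin, was chosen after its values were seen and ran the other way, with 79.0 FPKM with the SP3 siRNA and 203 FPKM with the SP1 siRNA.

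Matrix and adhesion genes had many members on the higher side. Of 32 compared, 13 (40.6%) were higher and 3 lower, although the median was 0.15. Of the 32, 17 lie in the highest level class, where 20.3% of genes were higher. ITGA6, the integrin subunit that binds laminin, had 102 FPKM with the SP3 siRNA, 26.2 FPKM with the SP1 siRNA, 49.5 FPKM in the double knockdown and 86.1 and 82.6 FPKM in the controls. ITGA6 was below the controls with the SP1 siRNA and in the double knockdown, and above them with the SP3 siRNA. VIM, the intermediate filament vimentin, was chosen after its values were seen and was among the 3 lower genes, with 5.88 and 13.8 FPKM in the SP3 siRNA and SP1 siRNA libraries. Among genes of the YAP and TEAD pathway, which include CTGF and CYR61 as targets, 17 were compared. Of these 17, 6 were higher and 2 lower, beside 12.3% and 18.6% of all genes compared. The receptor kinase AXL, also a target, was the lowest of them: 4.77 FPKM with the SP3 siRNA, 22.3 FPKM with the SP1 siRNA, 6.23 FPKM in the double knockdown and 24.2 and 22.9 FPKM in the controls. AXL was low in both libraries that received the SP3 siRNA, while CTGF and CYR61 were lowest with the SP1 siRNA alone.

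Metallothioneins, added after their values were seen, had 5 of 10 genes at the level minimum, of which 3 were higher and 1 lower. The 3 include MT2A and MT1E, which the rankings by difference had already picked out. The shares over all genes compared were 12.3% higher and 18.6% lower. Beside MT2A, MT1X had 517 FPKM with the SP3 siRNA, 100 FPKM with the SP1 siRNA, 228 FPKM in the double knockdown and 452 and 449 FPKM in the controls. MT1E had 204, 49.5, 130.5, 108 and 105 FPKM in the same order. The SP1 siRNA library was the lowest of the 5 for each of the 3 genes. MT3 ran the other way at low level, with 1.25 and 5.75 FPKM in the SP3 siRNA and SP1 siRNA libraries. The small proline-rich genes, added in the same way, had 2 of 10 at the minimum, and SPRR2D had already been picked out by its difference. Beside SPRR2D, SPRR1B had 4.96 FPKM with the SP3 siRNA and was listed at 0 with the SP1 siRNA.

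Antioxidant and chaperone genes divided within each list. Of 27 NRF2 and antioxidant genes, 7 were higher and 5 lower. The shares over all genes compared were 12.3% higher and 18.6% lower. PRDX5, a peroxiredoxin, had 398 FPKM with the SP3 siRNA, 102 FPKM with the SP1 siRNA, 261 FPKM in the double knockdown and 310.3 and 314 FPKM in the controls, so the SP1 siRNA library was the lowest. GCLC, the catalytic subunit of the first enzyme of glutathione synthesis, had 44.1 and 14.1 FPKM in the SP3 siRNA and SP1 siRNA libraries, with controls at 21.3 and 20.2 FPKM. TXNRD1, thioredoxin reductase, had 55.0 FPKM with the SP3 siRNA, 133 FPKM with the SP1 siRNA, 52.9 FPKM in the double knockdown and 133 and 132 FPKM in the controls, and was low in both libraries with the SP3 siRNA. Of 23 heat shock chaperones, 8 (34.8%) were higher and 2 lower, with a median of 0.26. Of the 23, 21 lie in the highest level class, where 20.3% of genes were higher. HSP90AB1, the constitutive HSP90, had 439 FPKM with the SP3 siRNA, 1031 FPKM with the SP1 siRNA and 966 and 983 FPKM in the controls. HSPA1B and its near-identical copy HSPA1A, inducible HSP70 genes, summed to 126 and 51.2 FPKM in the SP3 siRNA and SP1 siRNA libraries, and the controls differed from each other (43.0 and 61.9 FPKM). Of 24 genes of the ATF4 and unfolded protein response, 8 were higher and 2 lower. ASNS, asparagine synthetase, had 55.8 FPKM with the SP3 siRNA, 16.4 FPKM with the SP1 siRNA and 14.9 and 13.2 FPKM in the controls.

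Genes of the hypoxia response were more often lower than higher with the SP3 siRNA. Of 22 compared, 8 (36.4%) were lower and 1 higher, with a median difference of -0.45, and 18 of them lie in the highest level class, where 13.5% of genes were lower. Besides CA9, ANGPTL4, a secreted inhibitor of lipoprotein lipase, had 142 FPKM with the SP3 siRNA, 372 FPKM with the SP1 siRNA, 139 FPKM in the double knockdown and 354 and 370.1 FPKM in the controls. BNIP3, a mitophagy receptor, had 46.6, 114, 80.6, 150.3 and 146 FPKM in the same order. ANGPTL4 was low in both libraries with the SP3 siRNA and at the control level with the SP1 siRNA alone, and BNIP3 was below the controls in each knockdown library. NDRG1, chosen after its values were seen, was the 1 higher gene, at 992 and 597 FPKM in the SP3 siRNA and SP1 siRNA libraries. The list median against the controls was -0.85 in the SP3 siRNA library and -0.34 in the SP1 siRNA library. Of 24 glycolysis genes, 3 were higher and 5 (20.8%) lower, with a median of -0.32. LDHA, lactate dehydrogenase A, had 817 FPKM with the SP3 siRNA, 1752 FPKM with the SP1 siRNA, 1377 FPKM in the double knockdown and 1491 and 1552 FPKM in the controls. PFKFB4, which makes the activator of phosphofructokinase, had 8.70 and 23.3 FPKM in the SP3 siRNA and SP1 siRNA libraries, and both were below the controls at 54.2 and 52.6 FPKM. SLC2A3 was the clear exception in that list.

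Lipid synthesis genes, many of them targets of the SREBP factors, were likewise more often lower than higher. Of 17 fatty acid synthesis genes, 8 (47.1%) were lower and 1 higher, with a median of -0.35. Of the 17, 11 lie in the highest level class, where 13.5% of genes were lower. FASN, fatty acid synthase, had 156 FPKM with the SP3 siRNA, 373 FPKM with the SP1 siRNA, 282 FPKM in the double knockdown and 520.2 and 499.6 FPKM in the controls. SCD, the desaturase that makes oleate, had 357, 684, 586, 932 and 911 FPKM in the same order. In both genes each knockdown library was below the controls and the SP3 siRNA library was the lowest. ELOVL6, a fatty acid elongase, had 4.64 FPKM with the SP3 siRNA and 15.2 FPKM with the SP1 siRNA, with controls at 13.6 and 12.4 FPKM. Of 26 cholesterol synthesis genes, 7 (26.9%) were lower and 1 higher, with a median of -0.26. Of the 26, 20 lie in the highest level class. MVK, mevalonate kinase, had 6.16 and 12.2 FPKM in the SP3 siRNA and SP1 siRNA libraries, with controls at 18.7 and 17.8 FPKM. The cholesterol list's median against the controls was -0.80 with the SP3 siRNA and -0.52 with the SP1 siRNA, and the fatty acid list's was -0.77 and -0.14.

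Genes of serine, one-carbon and nucleotide synthesis and of ribosome production were also more often lower than higher with the SP3 siRNA. Of 22 genes in the first list, 7 (31.8%) were lower and 1 higher, with a median of -0.36. Over all genes compared, 18.6% were lower and 12.3% higher. MTHFD2, the mitochondrial folate enzyme, had 60.8 FPKM with the SP3 siRNA, 136 FPKM with the SP1 siRNA, 91.4 FPKM in the double knockdown and 77.0 and 80.7 FPKM in the controls. PAICS, an enzyme of purine synthesis, had 52.0, 111, 85.4, 82.5 and 79.4 FPKM in the same order. The controls lay between the single knockdowns for both. PHGDH, the first enzyme of serine synthesis, was the 1 higher gene, with 8.58 and 3.59 FPKM in the SP3 siRNA and SP1 siRNA libraries. Of 33 ribosome biogenesis genes, 9 (27.3%) were lower, beside 18.6% of all genes, and 3 were higher, with a median of -0.31. NOLC1, a nucleolar phosphoprotein, had 23.5 FPKM with the SP3 siRNA, 58.0 FPKM with the SP1 siRNA, 20.4 FPKM in the double knockdown and 26.6 and 28.0 FPKM in the controls, so the SP1 siRNA library stood apart. RRN3, an initiation factor of RNA polymerase I, was higher, with 12.6 and 6.09 FPKM. The cytosolic ribosomal proteins barely separated the libraries: of 78 genes, 4 were higher and 1 lower, although 64 of 78 differences were negative and the median was -0.18. RPL21, which has many pseudogenes that can share its reads, had 1511 FPKM with the SP3 siRNA and 620 FPKM with the SP1 siRNA.

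Of 21 TGF-beta pathway genes, 6 (28.6%) were lower and 1 higher, beside 18.6% lower and 12.3% higher over all genes compared. Their median difference was -0.45. With genes under a mean of 5 FPKM left out, that median was -0.18. ID3, a target of BMP signalling, had 23.3 FPKM with the SP3 siRNA, 44.2 FPKM with the SP1 siRNA, 17.9 FPKM in the double knockdown and 57.7 and 60.5 FPKM in the controls. The receptors TGFBR1 (2.0 and 6.17 FPKM in the SP3 siRNA and SP1 siRNA libraries) and BMPR2 (2.48 and 5.98 FPKM) were chosen after their values were seen. Of 19 WNT pathway genes, 3 were higher and 6 lower. CCND1, cyclin D1, which is also a target of that pathway, had 281 FPKM with the SP3 siRNA, 65.8 FPKM with the SP1 siRNA, 77.5 FPKM in the double knockdown and 359 and 358 FPKM in the controls. CCND1 was low in both libraries that received the SP1 siRNA, in contrast to MYC, which was low in both that received the SP3 siRNA. NOTUM, a secreted inhibitor of WNT, had 4.35 and 12 FPKM in the SP3 siRNA and SP1 siRNA libraries, with controls at 5.64 and 5.93 FPKM.

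Immune gene lists had more lower than higher members, as all genes compared did (18.6% lower and 12.3% higher). Of 16 genes of class I antigen presentation, 5 (31.2%) were lower and none higher, with a median of -0.36. TAPBP, tapasin, had 28.3 FPKM with the SP3 siRNA, 51.8 FPKM with the SP1 siRNA, 30.8 FPKM in the double knockdown and 54.1 and 54.0 FPKM in the controls. The libraries with the SP3 siRNA were low and the SP1 siRNA library was near the controls. Of 22 genes of NF-kB, chemokines and the acute phase, 7 (31.8%) were lower and 2 higher. The 2 higher genes were chemokines, chosen after their values were seen. CXCL8 had 26.5 and 7.72 FPKM in the SP3 siRNA and SP1 siRNA libraries, and CCL20 had 2.45 and 0.387 FPKM. LCN2, lipocalin 2, had 19.3 FPKM with the SP3 siRNA, 81.2 FPKM with the SP1 siRNA, 25.2 FPKM in the double knockdown and 48.4 and 47.9 FPKM in the controls. Of 26 interferon-stimulated genes, 3 were higher and 7 (26.9%) lower. Of the 26, 9 lie in the lowest level class and 6 in the next, where 25.7% and 20.1% of genes were lower, so that share is near the background. ISG15, a ubiquitin-like protein induced by interferon, was among the higher genes, with 548 and 166 FPKM in the SP3 siRNA and SP1 siRNA libraries and 379 and 404 FPKM in the controls.

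Few mitosis genes differed between the single knockdowns. Of 46 compared, 2 (4.35%) were higher and 2 lower, 8.7% in all beside 30.9% of all genes, and the median difference was 0.06. Against the controls the same list had a median of -1.05 in the SP3 siRNA library and -1.09 in the SP1 siRNA library, while control 2 stood at -0.19 relative to control 1. TOP2A, which untangles chromosomes, had 5.64 FPKM with the SP3 siRNA, 10.3 FPKM with the SP1 siRNA, 12.3 FPKM in the double knockdown and 32.2 and 26.7 FPKM in the controls. CDC20, an activator of the anaphase-promoting complex, was among the 2 higher genes, with 91.8 FPKM with the SP3 siRNA, 29 FPKM with the SP1 siRNA and 76.0 and 69.1 FPKM in the controls. Of 45 DNA replication genes, 5 were higher and 7 lower, 26.7% in all and near the 30.9% of all genes, with a median of -0.09. MCM2, a subunit of the replicative helicase, had 5.93 and 15.3 FPKM in the SP3 siRNA and SP1 siRNA libraries, and PCNA, the sliding clamp, had 69.9 and 37.3 FPKM. Among regulators of the G1 phase, the inhibitor CDKN1C had 107 FPKM with the SP3 siRNA, 19.9 FPKM with the SP1 siRNA, 68.1 FPKM in the double knockdown and 35.5 and 36.5 FPKM in the controls. Of 25 targets of p53, 3 were higher and 3 lower, GADD45A among the higher with 382 and 124 FPKM. Of 28 apoptosis regulators, 7 were higher and 4 lower: the protector MCL1 (137 and 52.0 FPKM in the SP3 siRNA and SP1 siRNA libraries) and the effector BAK1 (25 and 7.93 FPKM) were both higher.

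Splicing factors, epithelial genes and autophagy genes are the last lists described. Some lists are not reported here. Of 33 splicing factors, 9 (27.3%) were higher and 2 lower, with a median of 0.18, and 27 of them lie in the highest level class, where 20.3% of genes were higher. HNRNPK had 132 FPKM with the SP3 siRNA, 46.1 FPKM with the SP1 siRNA, 80.4 FPKM in the double knockdown and 174 and 166 FPKM in the controls, and the SP1 siRNA library was the lowest. Of 27 genes of epithelial junctions and keratins, 2 were higher and 4 lower, with a median of -0.01 (0.035 with median-ratio scaling). KRT7 had 12.1 FPKM with the SP3 siRNA, 26.0 FPKM with the SP1 siRNA, 9.62 FPKM in the double knockdown and 63.2 and 69.3 FPKM in the controls, so each knockdown library was low. ELF3, an epithelial transcription factor of the intestine, had 90.9 FPKM with the SP3 siRNA, 246 FPKM with the SP1 siRNA, 153 FPKM in the double knockdown and 267 FPKM in each control. ELF3 was below the controls where the SP3 siRNA was present and near them with the SP1 siRNA alone. Of 36 autophagy and lysosome genes, 4 were higher and 4 lower, with a median of 0.01. The shares over all genes compared were 12.3% higher and 18.6% lower.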

How the data were processed

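RNA sequencing of 5 HCT116 libraries was used, 1 per knockdown and 2 controls. For each library the authors deposited gene symbols with FPKM, fragments per kilobase of transcript scaled to library size. HTSeq 0.9.1, Cufflinks 2.2.1, HISAT2 2.0.5 and Trimmomatic 0.36 are named, per the submitters' processing notes, without role or order. Build, annotation and strandedness were not given in the sources used here. Without strand, a gene and its antisense or overlapping partner can share reads.

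From the deposited FPKM, differences of log2(FPKM + 1) were computed with pandas 2.3.3 and numpy 2.4.6 in Python 3.11.15 for genes that reached 1 FPKM in any library, without 27 symbols that read as dates. With 1 library a side no test was possible, and the call is a fold limit (1.5-fold, and 2-fold beside it). The calculation was tested on simulated data first.

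Whole reads were recovered from the FPKM steps for 17100 of 17100 genes above 0 (tolerance 0.02 reads), against 2.2% of 500 genes jittered by 1%. The total depth was fixed from 164 genes with a single transcript in GENCODE 29. Recovered reads are lower limits, summed to 99.0 to 99.12% of the library totals, and gave the 95% exact counting intervals (scipy 1.17.1), which cover counting error only. No count model was run, since no group pair has replicates on both sides.

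The comparison, the gene lists and the members named were chosen with earlier results of these data known. Named genes were the 2 targets, the 12 greatest differences each way and the 6 each way with the controls between (mean of at least 5 FPKM), and up to 3 members per list, some of which are not reported here. Of 1305 list entries, 1303 matched the tables. Promoters are RefSeq entries of GRCh38.p14. Alternatives tried were other pseudocounts, level limits, a 2-fold limit, median-ratio scaling and leaving out each control. Nothing in the labels calls the libraries separate cultures.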

Additional observations from a re-analysis of the deposited data

How the results depend on the processing

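Of the genes chosen by the naming rule, the 138 that were called were run gene by gene with 2 alternatives. None of them changed direction with a pseudocount of 0.1 or with median-ratio scaling. The named genes called were 138 with that pseudocount and 137 with that scaling. Named genes that were not called were not run in this way. Of the 45 gene lists, 21 had a median above 0, and 21 had one with a pseudocount of 0.1, 24 with median-ratio scaling and 26 at a mean of at least 5 FPKM. The lists that changed sign at that mean were Mediator and TFIID (0.13), the G1 regulators (0.12), homologous recombination (0.005), S100 proteins (0.28) and ERK and ERBB (0.24). Scaling turned the medians of Mediator and TFIID (0.04), epithelial junctions (0.035) and p53 targets (0.035). At 2-fold, 494 genes were higher and 645 lower with the SP3 siRNA, and the list members called, summed over the lists, were 173, against 429 at 1.5-fold. With a mean of at least 5 FPKM, 1071 genes were lower, against 2179. With a pseudocount of 0.1, 1149 of the genes called lower had the SP3 siRNA library below both controls, against 674, because that pseudocount widens the differences of weakly expressed genes. Median-ratio scaling moved the median of all genes to -0.05 and the share of calls that were higher to 45%, against 39.8% as deposited. Leaving out 1 control gave 471 to 482 higher genes with the SP3 siRNA library above the remaining control and 656 to 681 with the SP1 siRNA library below it. Of the lower genes, 731 to 767 had the SP3 siRNA library below it and 918 to 980 the SP1 siRNA library above it. Requiring that the counting interval exclude equality, an alternative added after the data were seen, left 1439 higher and 2174 lower. No paired analysis was possible because each knockdown has 1 library. Neither siRNA has a second library, so spread between cultures and effects of 1 siRNA sequence on other transcripts cannot be told apart from the difference between the factors. Weakly expressed genes have few reads and wide intervals.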
